A study of Mus musculus with 6 samples.

Results

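The genes described here are 35 mouse interferon response genes, chosen by name: genes that cells are known to switch on when they sense a virus or receive an interferon. They were followed through virgin, pregnant and lactating mammary glands of female mice with mutant or control Brca1. A probe set naming the gene and no other was present for 33 of the 35, out of 18193 genes with such a probe set in all. Ifi44 had none, and the only probe set for Isg15 also named a second gene, so no value is given for either. Where a gene had several probe sets, the one with the highest mean represented it. Mx1 and Mx2 stayed under the filter on low values, a mean log2 value of 7.715, which left 31 members among 11578 tested genes.

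Brca1 is a tumour suppressor gene of DNA repair, and the comparison of mutant with control glands asked which genes depend on it. Each of the 6 groups was 1 array of total RNA from mammary glands of the mixed 129/FVB/Black Swiss background. The virgin mutant was Brca1 D11/D11;p53+/- and the virgin control Brca1 D+/+;p53+/-, both 6 months old. The pregnant mutant was Brca1 co/co/MMTV-Cre and the pregnant control Brca1 +/co/MMTV-Cre, both at day 16.5 of pregnancy and 5 months old. The lactating mutant was again Brca1 D11/D11;p53+/- and its control Brca1 D+/+;p53+/-, both at day 1 of lactation and 2 months old. The virgin and lactating mice, controls included, thus carried p53+/-, whereas the pregnant mice, control included, carried the MMTV-Cre transgene, whose promoter drives Cre mainly in mammary epithelium. The labels of the pregnant pair do not state p53. The design text gives Brca1 D11/D11;p53+/- to all mutants. The genotypes used here are those of the sample labels.

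Values are MAS5 signals on a linear scale, compared as log2(signal + 52.1), so that ratios of dim genes are understated. All arrays had been scaled to a 2% trimmed mean of 500. The median signal was 120 to 158 on the virgin and pregnant arrays and 211 and 231 on the lactating mutant and control arrays, which also bear another date than the other 4 arrays. Stage, age and, for the lactating pair, this date cannot be told apart. Nor can the pregnant stage be told apart from the way Brca1 was altered in its pair, or from a p53 background that its labels do not state. The genotype term pools both kinds of mutant. In these female glands 20 probe sets of Y-linked genes served as a measure of darkness. Their median was 23.5 and 28.5 on the virgin mutant and control arrays, 29.1 and 21.0 on the pregnant ones, and 75.3 and 98.7 on the lactating ones. Milk protein and luminal epithelial markers were measured on every array, and 7 of 10 milk protein genes were called higher in pregnant than in virgin glands. Brca1 itself read 486 and 137 in the virgin mutant and control, 288 and 159 in the pregnant ones and 157 and 238 in the lactating ones (log2 ratio 0.58 ± 0.37 SE, limma adjusted p = 0.943). Neither labels nor files say whether its probe set lies inside the deleted stretch, so this reading does not check the genotypes.

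Interferons act on cells through paired receptors and the JAK kinases. Type I interferons lead to a complex holding Stat2 and Irf9 that binds the interferon-stimulated response element, ISRE, whereas interferon-gamma acts mainly through the gamma-activated site, GAS. The induced genes include RNA sensors, antiviral effectors, guanylate binding proteins, and the machinery that cuts and carries peptides for display on MHC class I. In the mammary gland such transcripts come from epithelium as well as from resident leukocytes.

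The promoters of the members are shown because these elements are what interferon-activated factors bind, and the members that changed between stages can be set beside the elements they hold. Windows of 300 bases around the annotated start (250 before, 50 after) were available from RefSeq, build GRCm38.p6, for 26 of the 35 members. The ISRE was searched on both strands as GAAANNGAAA and the GAS as TTCNNNGAA, which reads the same on both strands. An ISRE match lay in a window of 12 of 26 members, 46.2%, against 3.99% of 27025 genes. For the GAS it was 7 of 26, 26.9%, against 9.55% of genes. Below are the 200 bases before the start of 6 members, 5′ to 3′ on the gene's strand with matches in capitals. Gbp3 (chr3:142559844-142560043, plus strand) and Gbp2 (chr3:142620463-142620662, plus) carry ISRE matches, as does Ifit3 (chr19:34583329-34583528, plus). Psmb8 (chr17:34197995-34198194, plus) carries a GAS match. Bst2 (chr8:71537473-71537672, minus strand) carries a GAS match that overlaps the first of 2 overlapping ISRE matches. Cmpk2 (chr12:26469015-26469214, plus) has no match of either kind.
Gbp3: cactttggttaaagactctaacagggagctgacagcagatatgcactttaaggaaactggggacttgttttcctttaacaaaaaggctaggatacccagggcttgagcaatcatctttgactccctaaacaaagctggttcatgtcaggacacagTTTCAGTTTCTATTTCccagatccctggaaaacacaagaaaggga
Gbp2: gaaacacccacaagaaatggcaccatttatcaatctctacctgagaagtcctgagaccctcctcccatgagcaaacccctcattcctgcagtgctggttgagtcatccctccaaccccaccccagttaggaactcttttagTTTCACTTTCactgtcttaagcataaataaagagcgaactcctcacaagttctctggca
Ifit3: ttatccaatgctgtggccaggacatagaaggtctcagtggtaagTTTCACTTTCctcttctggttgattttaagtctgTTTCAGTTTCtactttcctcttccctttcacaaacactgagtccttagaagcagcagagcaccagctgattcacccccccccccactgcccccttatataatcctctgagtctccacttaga
Psmb8: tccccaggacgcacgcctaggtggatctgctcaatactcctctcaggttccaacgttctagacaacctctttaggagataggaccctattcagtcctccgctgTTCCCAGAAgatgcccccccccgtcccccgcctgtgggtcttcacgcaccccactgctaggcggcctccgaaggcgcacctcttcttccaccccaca
Bst2: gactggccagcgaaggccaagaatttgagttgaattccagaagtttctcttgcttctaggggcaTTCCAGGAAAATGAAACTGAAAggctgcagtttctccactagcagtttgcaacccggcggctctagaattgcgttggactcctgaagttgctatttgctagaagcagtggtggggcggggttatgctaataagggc
Cmpk2: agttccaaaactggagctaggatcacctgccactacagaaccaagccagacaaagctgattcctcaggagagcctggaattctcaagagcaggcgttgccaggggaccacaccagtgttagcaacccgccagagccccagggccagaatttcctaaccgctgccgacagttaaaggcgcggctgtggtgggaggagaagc
Counted from the start, the Gbp3 matches began at -45 and -39, that of Gbp2 at -59, those of Ifit3 at -156 and -122, and the GAS of Psmb8 at -97. Psmb9 and Tap1 lie head to head on chromosome 17 and their windows share 275 bases, with no match of either kind in them. Ifit1 (-104 and -85), Rsad2 (-120), Oas1a (-20 and -14) and Isg15 (-78, -72 and -66) were others with an ISRE match. A match describes these letters and is not a measured binding site, and its absence says only that the letters are not in the window.

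Across stages the immunoproteasome genes Psmb8 and Psmb9 and the guanylate binding protein genes Gbp2 and Gbp3 fell in lactating against virgin glands, and Cmpk2 rose. In lactating against virgin glands 9 of the 31 members fell (29.0%) and 4 rose (12.9%). Of all tested genes 28.2% fell and 23.9% rose, so the share that fell was near that of all genes. The median log2 ratio of the members was -0.21, against -0.10 for all tested genes. The members that fell were Psmb9, Gbp2, Ifit2, Ifit3, Psmb8, Gbp3, Bst2, Parp9 and Ifih1, and those that rose were Cmpk2, Oasl1, Dhx58 and Stat2. Tests between stages used limma on all 6 arrays, with 2 arrays a stage, a genotype term and Benjamini-Hochberg adjustment over all tested genes at 0.05. Nothing in the labels names separate litters or extractions, so p-values measure the spread between these arrays. Centring each array on its median instead shifted the median ratio of all genes to -0.69 and the calls to 17 lower and 2 higher. Psmb9, Psmb8, Gbp2, Gbp3, Ifit2 and Ifit3, 6 of the 9 falls, stayed called whichever array was left out, and of the 4 rises Cmpk2 alone did. Without the virgin mutant or the lactating control array the rises that remained called were Cmpk2 and Dhx58, and without the virgin control array Cmpk2 and Oasl1. The call of Bst2 was lost without the virgin mutant or lactating control array, that of Ifih1 without the virgin or lactating control array, and that of Parp9 without any of these 3. Dhx58 and Oasl1 passed the filter on low values only through their lactating readings, so their calls are given as a description.

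**Figure D1:**
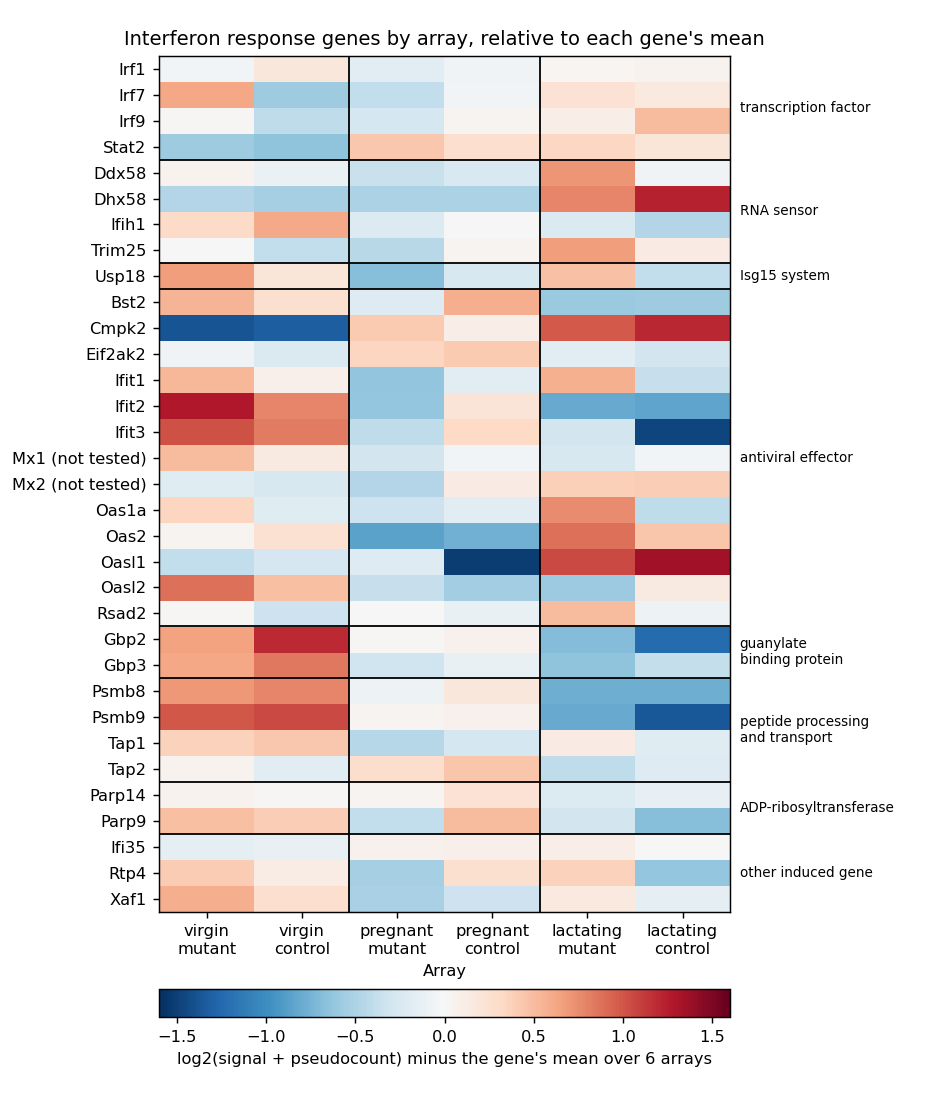
Heat map of 33 members (rows, grouped by role) on 6 arrays (columns), as log2(signal + 52.1) minus the gene's mean over the arrays. Psmb8, Psmb9, Gbp2 and Gbp3 are high on both virgin arrays and low on both lactating arrays, and Cmpk2 shows the opposite order.

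Pregnant against virgin glands showed the first step. Gbp3, Psmb9 and Xaf1 fell and Cmpk2 and Stat2 rose, which is 3 lower (9.68%) and 2 higher (6.45%) of 31. The corresponding shares of all tested genes were 7.97% lower and 6.37% higher. The members' median log2 ratio was -0.38, against -0.06 for all tested genes. Both pregnant arrays lay below both virgin arrays for 15 members, 48.4%, against 36.9% of all tested genes. They lay above them for 5 members, 16.1%, against 27.5%. The number of falls rested on the arrays used. Without the virgin mutant, the virgin control, the pregnant mutant or the pregnant control array no member fell, and the rises came to 1, Cmpk2, in each case. Without the lactating mutant array 10 fell, and without the lactating control array 11 fell, among them Gbp2, Ifit2, Ifit3, Oas2, Oasl2, Psmb8 and Tap1. Median centring gave 8 lower and 1 higher and quantile normalization 1 lower and 1 higher. The shares of all tested genes under these alternatives are not set beside the counts. The counts thus describe only how far the calls depend on arrays and scaling.

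In lactating against pregnant glands 4 members rose (Oasl1, Dhx58, Oas2 and Cmpk2) and 4 fell (Psmb9, Gbp2, Psmb8 and Tap2), 12.9% each. The rises of Oasl1 and Dhx58 are again a description, because of the filter. Among all tested genes 15.1% rose and 16.8% fell. The median log2 ratio of the members was 0.16, against -0.03 for all tested genes. Without the pregnant mutant array 1 member rose, Oasl1, and 2 fell, Bst2 and Ifit3. Without the pregnant control array 1 rose, Oas2, and 0 fell. Without the lactating control array 2 members fell, Psmb8 and Psmb9, while 4 rose. Under median centring 11 fell and 3 rose, with the median of all genes at -0.45.

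**Figure D2:**
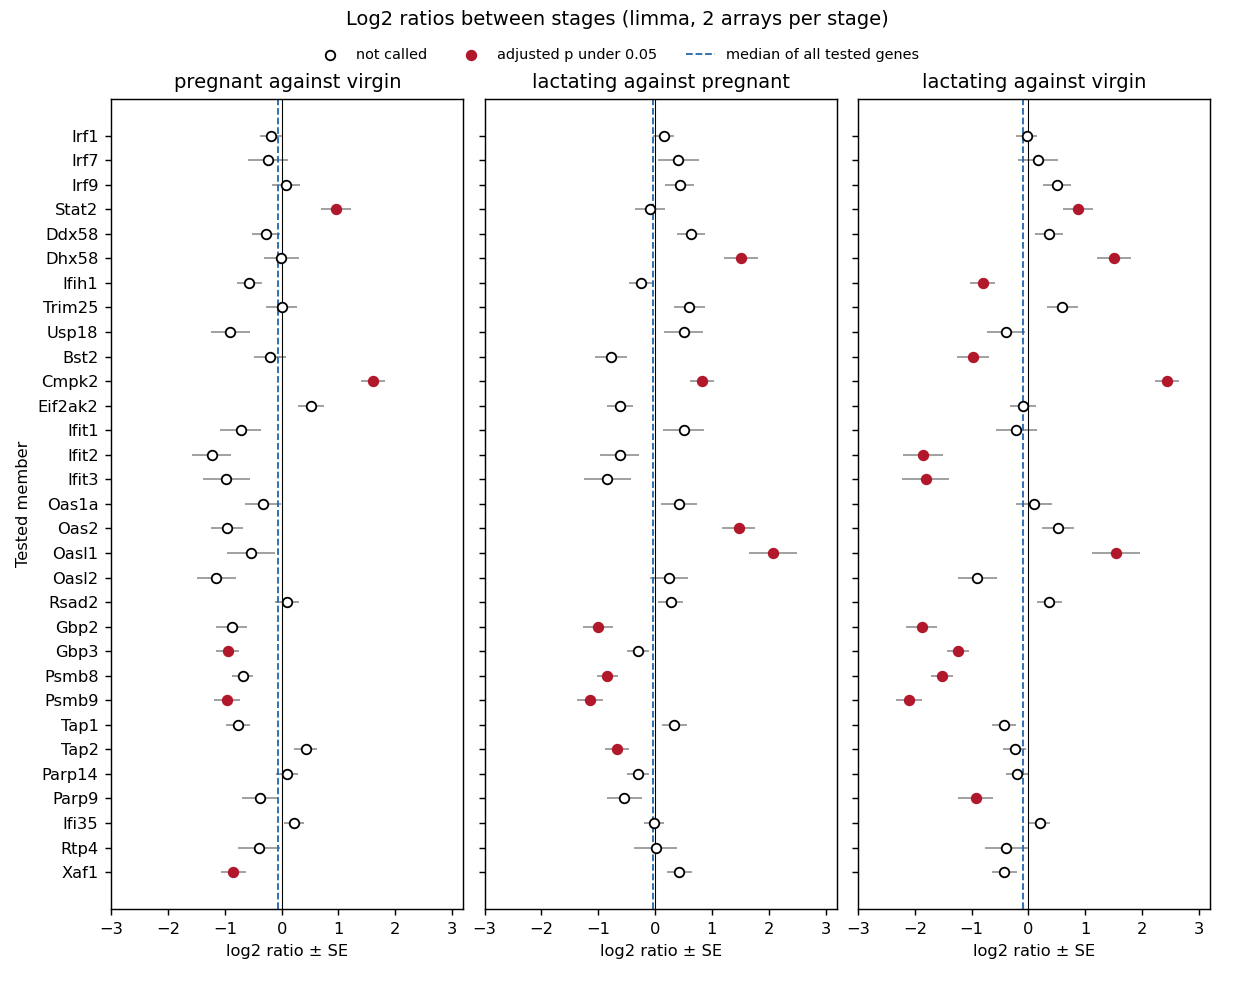
Log2 ratios (points) with standard errors (bars) of the 31 tested members in 3 stage comparisons; filled points passed an adjusted p of 0.05 and the dashed line is the median of all tested genes. Psmb9 and Gbp2 lie near -2 and Cmpk2 above 2 in lactating against virgin glands.

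Among the peptide processing and transport genes, Psmb9 had the largest fall of any member in lactating against virgin glands. Psmb9, which with Psmb8 replaces a constitutive catalytic subunit of the proteasome in cells exposed to interferon-gamma, had signals of 2090.4 and 2184 in the virgin mutant and control glands. Its signals were 1058 and 1078 in the pregnant mutant and control and 563 and 368 in the lactating ones. The stages did not overlap, and each was lower than the one before. The log2 ratio was -0.97 ± 0.23 (SE, adjusted p = 0.0312) in pregnant against virgin, -1.14 ± 0.23 (adjusted p = 0.0110) in lactating against pregnant and -2.11 ± 0.23 (adjusted p = 0.000469) in lactating against virgin glands, a 4.31-fold fall over the whole course. Psmb8 read 3715 and 3956 in the virgin mutant and control, 2162 and 2595 in the pregnant ones and 1301 and 1301 in the lactating ones. Again no 2 stages overlapped. Such separation was common among all tested genes. In lactating against virgin glands 41.6% of them lay wholly lower and 35.3% wholly higher. In lactating against pregnant glands the shares were 36.3% and 33.6%. The ratio of Psmb8 in lactating against pregnant glands was -0.84 ± 0.19 (adjusted p = 0.0156). It was -0.15 and not called under the mean with a dim second probe set. In lactating against virgin glands it was -1.52 ± 0.19 (adjusted p = 0.000750). In pregnant against virgin glands it was -0.68 ± 0.19 with an adjusted p of 0.0502, just outside the threshold.

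The transporter subunits took other courses. Tap1, a subunit of the pump that carries peptides into the endoplasmic reticulum, read 952 and 996 in the virgin mutant and control, 517 and 586 in the pregnant ones and 802 and 628 in the lactating ones. It was lowest in pregnancy, with a log2 ratio of -0.77 ± 0.22 in pregnant against virgin glands (adjusted p = 0.0559) and -0.43 ± 0.22 in lactating against virgin glands (adjusted p = 0.134). Although the Tap1 and Psmb9 windows share 275 bases, both lactating arrays lay above both pregnant arrays for Tap1 and below them for Psmb9. Tap2, its partner subunit, read 1480 and 1250.2 in the virgin mutant and control, 1744 and 1951 in the pregnant ones and 1061 and 1228 in the lactating ones. Tap2 was highest in pregnancy and fell in lactating against pregnant glands (-0.67 ± 0.20, adjusted p = 0.0420). That call was lost without the virgin mutant array and without any single pregnant or lactating array. It was also lost under quantile normalization and without the variance trend.

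The constitutive subunits that Psmb9 and Psmb8 replace, Psmb6 and Psmb5, served as a comparison among proteasome subunits. Psmb6 read 2884 and 3162 in the virgin mutant and control, 3335 and 3657 in the pregnant ones and 2956 and 2453 in the lactating ones. Psmb5 read 3021 and 2671 in the virgin mutant and control, 3509.9 and 3519 in the pregnant ones and 4426 and 3121 in the lactating ones. Neither passed the test in any stage comparison, with log2 ratios in lactating against virgin glands of -0.16 ± 0.20 for Psmb6 and 0.38 ± 0.20 for Psmb5. The third interferon-induced subunit, Psmb10, which is not among the 35, fell in lactating against virgin glands (-1.40 ± 0.20, adjusted p = 0.00127). Its counterpart Psmb7 had a ratio of -0.56 ± 0.23 (adjusted p = 0.0741). Among the constitutive subunits as a list, 7 of 14 fell in lactating against virgin glands, among them Psma1 (-2.07) and Psma6 (-1.88), while none of the 14 was called in pregnant against virgin glands. The differences between each induced subunit and its counterpart were not tested.

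**Figure D3:**
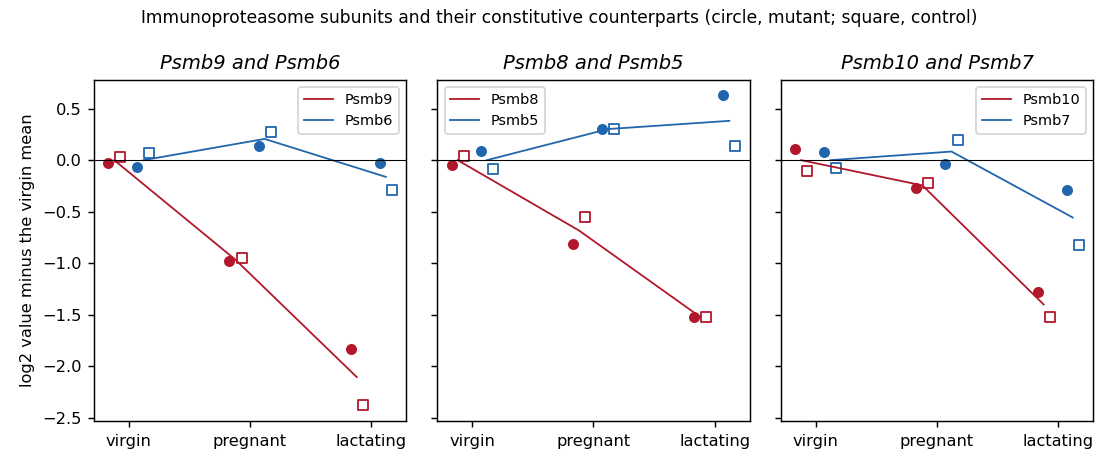
Log2 values of the induced proteasome subunits (red) and of the constitutive subunits they replace (blue), relative to each gene's virgin mean, on 6 arrays (circles, mutant; squares, control) with stage means joined. Psmb9 and Psmb8 end near -2.1 and -1.5 while Psmb6 and Psmb5 end at -0.16 and 0.38.

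The guanylate binding proteins, GTPases that attack membranes of intracellular pathogens, both fell in lactating against virgin glands. Gbp2 read 1918 and 2812 in the virgin mutant and control, 1223 and 1264 in the pregnant ones and 728 and 483 in the lactating ones. No stages overlapped. The ratio was -1.004 ± 0.272 in lactating against pregnant glands (adjusted p = 0.0290) and -1.88 ± 0.27 in lactating against virgin glands (adjusted p = 0.00136), a 3.68-fold fall. A second probe set for Gbp2, one prone to cross-hybridisation, had a ratio of -2.13. Gbp3 read 1145 and 1355 in the virgin mutant and control, 575 and 666 in the pregnant ones and 447 and 549 in the lactating ones. Most of its fall lay between virgin and pregnant glands (-0.95 ± 0.20, adjusted p = 0.0207), with -1.24 ± 0.20 over the whole course (adjusted p = 0.00183).

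The antiviral effectors moved in both directions. Of 11 tested, Ifit2, Ifit3 and Bst2 fell (27.3%) and Cmpk2 and Oasl1 rose (18.2%) in lactating against virgin glands. Of all tested genes 28.2% fell and 23.9% rose, so neither share stood above that of all genes. The rise of Oasl1 is a description, because of the filter. Ifit2, which binds foreign RNA, read 813 and 556 in the virgin mutant and control, 179 and 359.5 in the pregnant ones and 151 and 146 in the lactating ones. All lactating and pregnant readings lay below the virgin ones, and the lactating to virgin ratio was -1.85 ± 0.35 (adjusted p = 0.00376). Ifit3, a partner of the Ifit proteins, read 888 and 771 in the virgin mutant and control, 296 and 527 in the pregnant ones and 325 and 116 in the lactating ones. Its pregnant and lactating readings overlapped, and the lactating to virgin ratio was -1.81 ± 0.41 (adjusted p = 0.00854). Ifit1, which binds RNA lacking a methylated cap, lies beside them on chromosome 19 but was not called. It read 400.1 and 279 in the virgin mutant and control, 149 and 223 in the pregnant ones and 411 and 189 in the lactating ones, with a lactating to virgin ratio of -0.21 ± 0.36 (adjusted p = 0.643). Bst2, which tethers budding virus to the cell surface, read 1076 and 870.4 in the virgin mutant and control, 617 and 1111 in the pregnant ones and 461 and 468 in the lactating ones. Both lactating readings were the lowest (-0.98 ± 0.28 against virgin, adjusted p = 0.0219).

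Cmpk2, a mitochondrial nucleotide kinase, had the largest ratio of any member. It read slightly less in the virgin mutant than the 466 of the virgin control, 1669 and 1344 in the pregnant mutant and control and 2491 and 2920.3 in the lactating ones. Each stage lay above the one before, with no overlap. Its ratio was 1.61 ± 0.21 in pregnant against virgin glands (adjusted p = 0.00505) and 2.44 ± 0.21 in lactating against virgin glands (adjusted p = 0.000229), a 5.43-fold rise. In lactating against pregnant glands it was 0.83 ± 0.21 (adjusted p = 0.0239), or 0.25 and not called under the mean of both probe sets. The second Cmpk2 probe set also read higher in pregnant than in virgin glands (2.05) but not in lactating than in pregnant ones (-0.33). Rsad2, which makes a chain-terminating nucleotide and lies close to Cmpk2 on chromosome 12, had a lactating to virgin ratio of 0.37 ± 0.22 (adjusted p = 0.186). The other Rsad2 probe sets read 1.63 and 0.85.

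The 2′-5′ oligoadenylate synthetases, which activate RNase L, and their relatives had their lowest stage mean in pregnancy for all 4 tested, Oas1a, Oas2, Oasl1 and Oasl2. Of all tested genes 22.9% had their lowest stage mean there. Only for Oas2 were the pregnant arrays both the lowest. The lowest single array was the lactating control for Oas1a and the lactating mutant for Oasl2. For Oasl1 the pregnant mutant array lay above both virgin arrays. Oas2 read 270.5 and 319.5 in the virgin mutant and control, 121 and 132 in the pregnant ones and 525 and 371.5 in the lactating ones. Its lactating readings were the highest and its pregnant readings the lowest (1.47 ± 0.28 in lactating against pregnant, adjusted p = 0.0101). Oasl1, known in mice to restrain Irf7 translation, read 148 and 166 in the virgin mutant and control, 175 and 39.6 in the pregnant ones and 498 and 614 in the lactating ones. The pregnant control reading was close to that of Y-linked probe sets, so the ratio of 2.07 ± 0.42 in lactating against pregnant glands (adjusted p = 0.0121) rests partly on 1 dim value, and without that array it was 1.31 and not called. Against virgin glands it was 1.53 ± 0.42 (adjusted p = 0.0183), and under median centring 0.94, no longer called. Oasl2 read 498 and 364 in the virgin mutant and control, 179 and 150.2 in the pregnant ones and 148 and 277 in the lactating ones, a course that passed the test nowhere (adjusted p = 0.0624 in pregnant against virgin, 0.601 in lactating against pregnant and 0.0575 in lactating against virgin glands). Oas1a ranged over all 6 arrays between 439 and 1043 and was not called. Eif2ak2, the kinase PKR that stops translation, read 302 to 526 and was not called, and another of its probe sets had a lactating to virgin ratio of 1.83 where the representing one had -0.09. Mx1 and Mx2, GTPases that block viral replication, stayed dim, at 111 to 234 and 12.5 to 65.3.

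**Figure D4:**
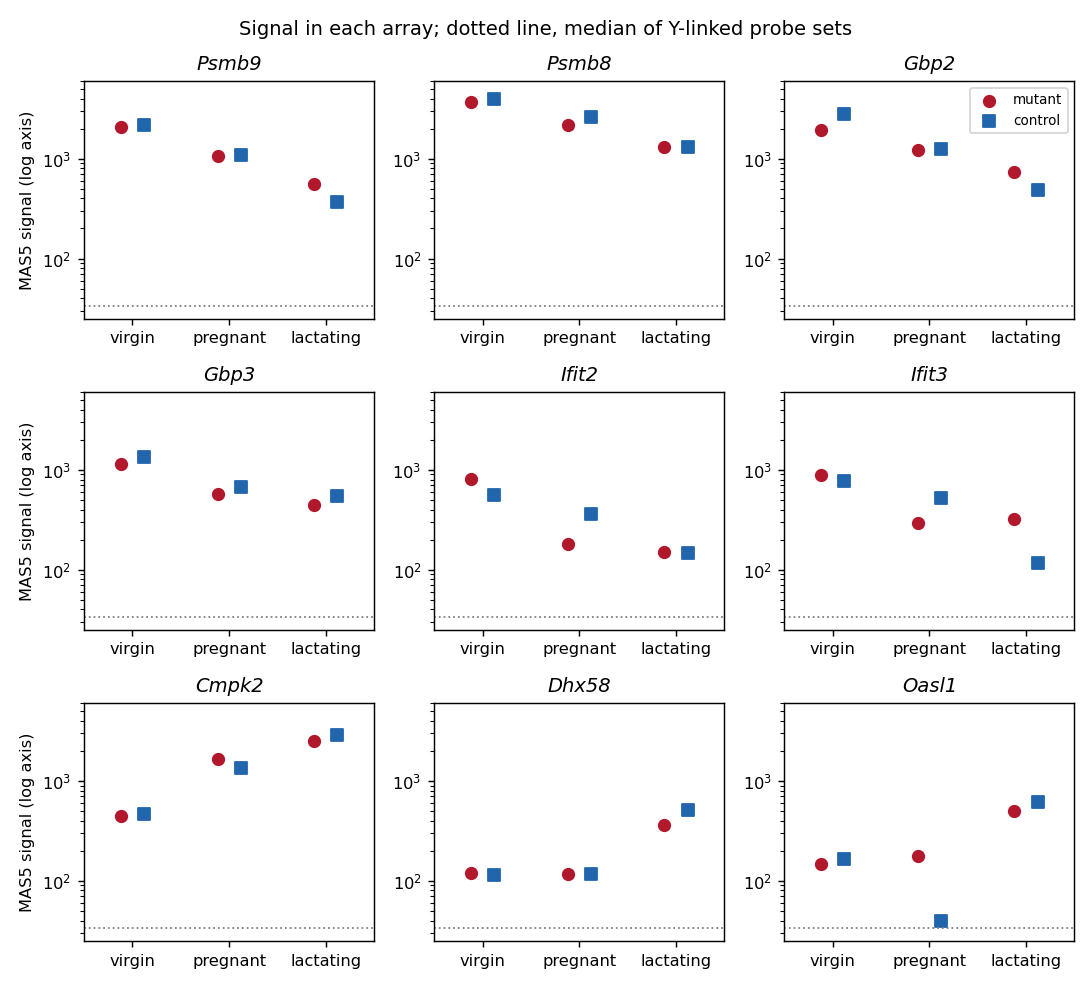
MAS5 signals on a log axis of 9 members in virgin, pregnant and lactating glands (circles, mutant; squares, control), with the median of Y-linked probe sets dotted. Psmb9, Psmb8, Gbp2 and Gbp3 step down and Cmpk2 steps up without overlap of virgin and lactating arrays, and the pregnant control reading of Oasl1, 39.6, sits just above the dotted line.

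Of the RNA sensors, Ifih1 and Dhx58 went opposite ways in lactating against virgin glands. Ifih1, the MDA5 receptor of long double-stranded RNA, read 1132 and 1404 in the virgin mutant and control, 772 and 901 in the pregnant ones and 763 and 639 in the lactating ones (-0.81 ± 0.22, adjusted p = 0.0169). Dhx58, the related LGP2, read 120.2 and 114 in the virgin mutant and control, 116 and 117 in the pregnant ones and 359 and 510.0 in the lactating ones (1.51 ± 0.30, adjusted p = 0.00533). On the 4 virgin and pregnant arrays Dhx58 was under the filter's level of 158, and with the mean of its probe sets it did not pass the filter. Its other probe sets read -1.43 and 0.93 in lactating against virgin glands, so the probe sets disagree in sign. Ddx58, the RIG-I receptor of viral RNA ends, read 815 to 1762, highest in the lactating mutant gland, and was not called (adjusted p = 0.0895 in lactating against pregnant). Trim25, the ubiquitin ligase that activates RIG-I, read 1735 to 3822 and was not called.

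Among the transcription factors Stat2 was the only one of 4 called. It read 149 and 139 in the virgin mutant and control, 349 and 309 in the pregnant ones and 323 and 289 in the lactating ones, with a ratio of 0.96 ± 0.26 in pregnant against virgin glands (adjusted p = 0.0488) and 0.87 ± 0.26 in lactating against virgin glands (adjusted p = 0.0252). The call in lactating against virgin glands was lost whichever array was left out, and also under quantile normalization (0.36), median centring (0.28) and the mean of probe sets (0.28). Its second probe set read 258.5 and 177 in the virgin mutant and control against 86.3 and 43.6 in the pregnant ones, a ratio of -1.21. The mean of both probe sets gave -0.13, so the direction for Stat2 depends on the probe set. Irf1, which induces MHC class I genes, stayed between 1642 and 2124 on all 6 arrays and was not called. Irf9, the DNA-binding part of the complex with Stat2, ranged from 908 to 1761, and Irf7, the amplifier of type I interferon production, from 299 to 750.0. Neither was called.

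Parp9 and Xaf1 were called among the remaining members. Parp9, an ADP-ribosyltransferase that enhances interferon responses with Dtx3l, read 2661 and 2485 in the virgin mutant and control, 1418 and 2695 in the pregnant ones and 1526 and 1150.4 in the lactating ones. It fell in lactating against virgin glands (-0.93 ± 0.31, adjusted p = 0.0368), and the pregnant mutant and control readings lay far apart. Its call was lost under quantile normalization, without the variance trend, and without the virgin mutant, virgin control or lactating control array. Xaf1, a pro-apoptotic protein, read 1324 and 1062 in the virgin mutant and control, 593 and 678 in the pregnant ones and 975 and 776 in the lactating ones. It fell in pregnant against virgin glands (-0.85 ± 0.22, adjusted p = 0.0408), and its second probe set had a ratio of -2.03 there. Usp18, the protease that removes Isg15 and damps receptor signalling, read 167 to 505, and Parp14, Rtp4 and Ifi35 were not called either. For Ifi35 the representing probe set was bright, at 3938 to 4713, and the other probe sets had lactating to virgin ratios of 0.81 and 1.12.

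Taking the stage means, 16 of 31 members were highest in virgin glands, 51.6%, against 41.9% of all tested genes. Pregnant glands held the lowest mean for 14 members, 45.2%, against 22.9% of all tested genes. These shares were not tested. Of the 9 members that fell in lactating against virgin glands, 8 had a promoter window, and 7 of these held an ISRE or GAS match. Among the 4 that rose, 3 had a window and 1, Stat2, held a match. Of the 18 not called, 13 had a window and 7 held a match. These counts are small and were not tested, so no link between matches and direction is drawn from them. The only match of Ifit2 was a GAS in the first of its windows, and the second windows of Ifit2 and Gbp3 held none. Among the rises, those of Dhx58 and Oasl1 are a description, because of the filter.

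Leukocyte markers fell over the same stages. Of 8 pan-leukocyte genes, 6 fell in pregnant against virgin glands and 7 in lactating against virgin glands, where Vav1 rose. Ptprc, the CD45 surface phosphatase of all leukocytes, read 9928 and 7533 in the virgin mutant and control, 1994 and 1434 in the pregnant ones and 327 and 328 in the lactating ones (-4.52 ± 0.20 in lactating against virgin, adjusted p = 5.368e-05). The summed signal of the 8 genes was 30002 and 24785 in the virgin mutant and control, 9138 and 8587 in the pregnant ones and 3640 and 3569 in the lactating ones. For the 33 members the sums were 37567 and 35815 in the virgin mutant and control, 27792 and 32837 in the pregnant ones and 33207 and 28707 in the lactating ones. Macrophage and dendritic cell markers fell for 5 of 20 in pregnant against virgin and 13 of 20 in lactating against virgin glands, T cell markers for 7 of 10 in each, and B and plasma cell markers for 8 and 7 of 11. Some were called higher, namely Cd8a, Zap70, Pax5, Xbp1, Cx3cr1 and Flt3 in lactating against virgin glands and C1qa and Xbp1 in pregnant against virgin glands. Markers of other cells fell too in lactating against virgin glands, for 8 of 9 fibroblast genes (median log2 ratio -3.03), 7 of 10 adipocyte genes (-2.51) and 7 of 9 endothelial genes (-1.39). Fewer cells of a type and less RNA per cell cannot be told apart in whole glands. All 10 skeletal muscle markers were called higher in pregnant than in virgin glands, with sums of 178120 and 157033 in the pregnant mutant and control against 14400 and 41529 in the virgin ones. The 3′ to 5′ signal ratio of actin, which rises as RNA degrades, was 2.04 and 2.74 on the virgin mutant and control arrays, 1.43 and 1.37 on the pregnant ones and 1.58 and 1.91 on the lactating ones. For Gapdh this ratio was 1.516 and 3.502 on the virgin mutant and control arrays and 0.801 and 0.732 on the pregnant ones. On the lactating mutant and control arrays it was 1.202 and 1.088. The virgin control array was thus the highest for actin and stood further apart for Gapdh. The part of leukocytes, fibroblasts, adipocytes, endothelium, muscle and RNA quality in the members' ratios was not tested.

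The rest of the pathway was read from lists of its genes. None of the 10 interferon genes with a probe set passed the filter, and their median signal was 46.9 and 44.1 in the virgin mutant and control, 52.0 and 43.5 in the pregnant ones and 167 and 117 in the lactating ones. Over the same arrays the Y-linked median also stood higher in lactating glands, as given above. Of 9 receptors and kinases, 3 fell in lactating against virgin glands (the receptor chains Ifnar1, Ifnar2 and Il10rb) and 2 rose (Ifngr2 and the kinase Tyk2). These shares, 33.3% and 22.2%, were near the 28.2% and 23.9% of all tested genes. Jak1 fell in pregnant against virgin glands (-0.80, adjusted p = 0.0330). Of 11 nucleic acid sensing genes, 5 rose in lactating against virgin glands (Tlr3, Tlr9, Myd88, Ticam1 and Irf3) and 1 fell (Tbk1). These shares were 45.5% and 9.09%, against 23.9% and 28.2% of all tested genes, with a median log2 ratio of 0.73. Tlr9 was dim on the virgin arrays, at 128 and 73.2 in the mutant and control. None of the 11 was called in pregnant against virgin glands. Among 10 inhibitors of the pathway Cish, a feedback inhibitor that prolactin signalling also induces, rose in pregnant against virgin glands (2.16 ± 0.35, adjusted p = 0.0103), and Irf2 and Trim24 fell. That is 10% higher and 20% lower, against 6.37% and 7.97% of all tested genes.

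A further 49 interferon-induced genes outside the 35 were tested, a list also chosen with earlier results of these data known. In lactating against virgin glands 29 fell (59.2%) and 4 rose (8.16%), against 28.2% and 23.9% of all tested genes, with a median of -0.97. In pregnant against virgin glands 14 fell (28.6%) and 1 rose (2.04%), against 7.97% and 6.37% of all tested genes. The part of leukocytes in these ratios was not tested. Falling genes included Irf8, a factor of myeloid cells (-2.77 in lactating against virgin, adjusted p = 0.000252), the guanylate binding protein Gbp7 (-2.01), and Nlrc5, the activator of MHC class I genes (-1.69, adjusted p = 0.00111). Nlrc5 read 1046 and 1279 in the virgin mutant and control, 304 and 297 in the pregnant ones and 360.1 and 289 in the lactating ones. Isg20, an RNA exonuclease, rose in lactating against virgin glands (2.41, adjusted p = 0.000198).

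In Brca1 mutant against control glands, tested over the 3 pairs with limma, 0 of 31 members were called and 0 had an unadjusted p under 0.05. Among all tested genes 0% were called and 4.72% had an unadjusted p under 0.05. The median log2 ratio, mutant to control, was 0.03 for the members and 0.03 for all tested genes, and the members ranged between -0.23 for Gbp3 and 0.51 for Oas1a. With SEs of 0.15 to 0.34, this fit could not show small differences. Large ratios were not called either. Over all tested genes the ratios ranged from -1.68 to 3.31, and the lowest limma adjusted p was 0.943. The absence of calls among the members thus does not show that they were unchanged. Only 5 members had the same sign in all 3 pairs, 16.1%, against 25.7% of all tested genes. Rsad2 (0.35 ± 0.18, adjusted p = 0.943) and Stat2 (0.12 ± 0.21, adjusted p = 0.971) were higher in the mutant in each pair. Gbp3 (-0.23 ± 0.16, adjusted p = 0.943), Irf1 (-0.13 ± 0.15, adjusted p = 0.954) and Psmb8 (-0.12 ± 0.15, adjusted p = 0.958) were lower in each pair. For Psmb8 the lactating readings were all but equal, at 1300.8 in the mutant and 1301.0 in the control.

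Within the pairs the members' ratios went different ways. In the pregnant pair 26 of 31 members read lower in the mutant, with a median log2 ratio of -0.17 against 0.02 for all tested genes. In the virgin and lactating pairs 20 of 31 read higher in the mutant, with medians of 0.16 and 0.14 against 0.02 and 0.04 for all tested genes. Each pair is 1 mutant and 1 control array, so these ratios carry no test. By the labels the pregnant mice differ from the others also in how Brca1 was altered, and their p53 genotype is not stated, as described above. Skeletal muscle markers, at 14400 in the virgin mutant against 41529 in the virgin control, were the list that differed most in the virgin pair. Luminal epithelial markers had median log2 ratios of 0.32 in the virgin pair (10 of 12 higher in the mutant), -0.40 in the pregnant pair (9 of 12 lower) and 0.74 in the lactating pair (8 of 12 higher, 5 of them past 2-fold), the same signs as the members. Milk protein genes had medians of 0.13, -0.42 and 0.08, and myoepithelial genes 0.23, -0.12 and 0.39, in the virgin, pregnant and lactating pairs. Leukocyte and fibroblast markers had other signs. In the same order the medians were 0.127, 0.085 and -0.122 for pan-leukocyte genes and 0.338, 0.155 and -0.128 for T cell genes. They were 0.452, 0.377 and -0.216 for B and plasma cell genes and -0.032, 0.179 and 0.399 for fibroblast genes. The part of these cells in the members' ratios was not tested.

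**Figure D5:**
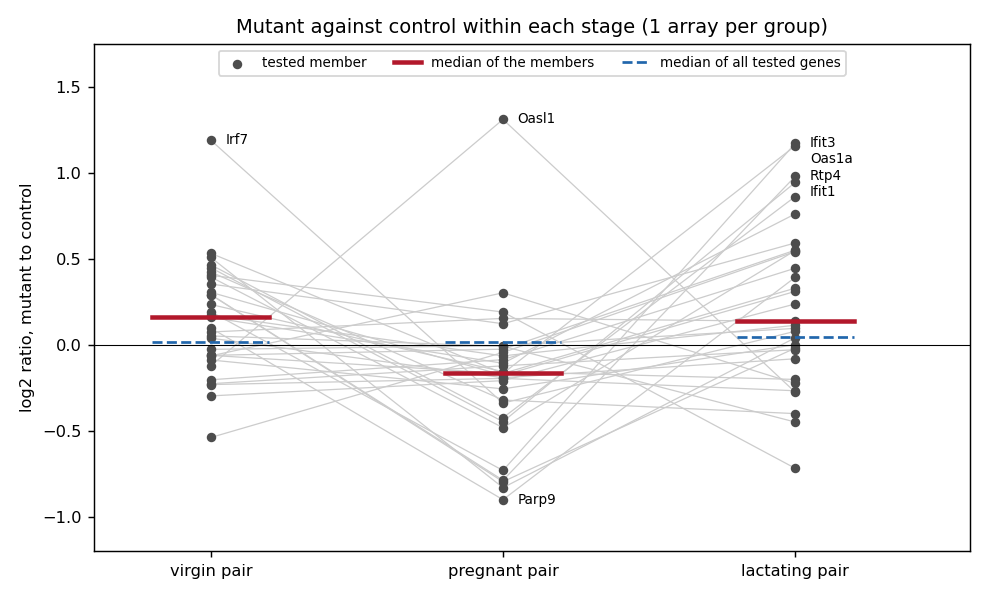
Log2 ratios of mutant to control for the 31 tested members (grey points joined by gene) in the virgin, pregnant and lactating pairs, with the median of the members (red) and of all tested genes (blue dashed). The members' median is 0.16, -0.17 and 0.14 in the 3 pairs.

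In the pregnant pair the lowest ratios were those of Parp9 (1418 in the mutant against 2695 in the control, log2 ratio -0.90), Ifit2 (179 against 359.5, -0.83) and Bst2 (617 against 1111, -0.80). Rtp4, a chaperone of receptors, followed at 751.0 in the mutant against 1336 in the control, and Ifit3 at 296 against 527. Oasl1 was the exception at 175 in the mutant against 39.6 in the control (1.31), and the control reading was near the dark probe sets. It was the only member past 2-fold in this pair, where 1.11% of all tested genes were higher and 0.898% lower by that much.

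In the lactating pair Ifit3 read 325 in the mutant against 116 in the control (1.17) and Oas1a 1043 against 439 (1.16). Rtp4 (1440 against 705, 0.98), Ifit1 (411 against 189, 0.94) and Usp18 (433 against 215, 0.86) followed below 2-fold, while Oasl2 was lowest (148 against 277, -0.72). Thus Ifit3 and Rtp4 read lower in the mutant than in the control during pregnancy and higher during lactation. Past 2-fold were 2 of 31 members, both higher, against 3.58% of all tested genes higher and 2.69% lower. In the virgin pair Irf7 alone passed 2-fold, at 750.0 in the mutant against 299 in the control (1.19), where 1.42% of all tested genes were higher and 1.25% lower. Oas1a (0.53) and Ifit2 (0.51) were next, and Gbp2 was lowest at 1918 in the mutant against 2812 in the control (-0.54).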

How the data were processed

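Total RNA of mammary glands from 6 mice was measured on a mouse 3′ expression array. Each deposited value is the MAS5 signal intensity of a probe set, not logged, with MAS5 named in the submitters' processing notes without a version. Of 45101 probe sets, 34945 named 1 gene in the platform annotation and only these were used. The deposited scaling was kept, and 52.1, the 25th percentile of all values, was added before taking log2. Genes whose mean was under 7.715, the median over probe sets, were left out of the tests. Comparisons were fitted with limma 3.58.1 in R 4.3.3 (lmFit and eBayes with a variance trend) with stage and genotype as terms. The fit had 2 residual and 5.51 prior degrees of freedom. Deviations from the genotype means correlated within each pair (r = 0.855 virgin, 0.585 pregnant, 0.822 lactating), and the labels' stage is the pairing. The number of arrays limits the precision. The members and all lists were chosen with earlier results of these data known. Every member is named. Full statistics go to the 4 highest and 4 lowest called ratios of each stage comparison, to members of 1 sign in all 3 pairs, and to others singled out after their values were seen. Alternatives in scaling, pseudocount, filter, probe set, variance model and arrays are given at the end.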

Additional observations from a re-analysis of the deposited data

Results flagged for a closer look

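The direction of the members' mutant to control ratios differed between stages. The median log2 ratio over the 31 tested members was 0.159 in the virgin pair, -0.167 in the pregnant pair and 0.136 in the lactating pair. The difference was not tested, since each pair is 1 mutant and 1 control array. Over the same pairs the median of 12 luminal epithelial markers was 0.321, -0.397 and 0.742, the same signs, and its part in the members' ratios was not tested. Other lists had other signs, such as pan-leukocyte genes (0.127, 0.085 and -0.122) and fibroblast genes (-0.032, 0.179 and 0.399). The median of the 49 other interferon-induced genes was -0.005, -0.069 and -0.050. The pregnant median stayed negative and the lactating median positive under every scaling, pseudocount, filter and probe set choice that was run, while under median centring the virgin median came to 0.004.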

How the results depend on the processing

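With 2 arrays a stage, the counts of called members rest on single arrays. The shares of all tested genes called under each alternative are not set beside the counts here or above. The counts thus describe this dependence and are no result about the members. Members higher in pregnant against virgin glands numbered 1 under quantile normalization, median centring, a pseudocount at the 10th percentile, no filter, a filter at the 75th percentile and the mean of probe sets. The number lower there was 1 under quantile normalization, 8 under median centring, 5 with a pseudocount at the median, 5 with the stricter filter and 8 without the genotype term. In lactating against pregnant glands the number lower was 11 under median centring and the number higher was 1 with the stricter filter. In lactating against virgin glands 17 were lower and 2 higher under median centring, and 1 was higher with the stricter filter. Leaving out 1 array or pair gave 1 to 2 higher and 0 to 11 lower in pregnant against virgin, 1 to 4 higher and 0 to 4 lower in lactating against pregnant, and 2 to 4 higher in lactating against virgin glands. Stat2 in pregnant against virgin glands turned to -0.127 under the mean of its probe sets, which disagree. No other named ratio changed sign where it could be computed, which left out Dhx58 under the mean of probe sets and 10 of the 26 named ratios under the stricter filter. Mutant against control gave 0 called members in every alternative run. Without the stage block, which pairs mutant and control arrays, no call changed there. The variance trend does not bear on the ratios within pairs.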
